A study of Mus musculus with 3 samples.

Results

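Cytosolic ribosomal protein genes encode the proteins of the large and small subunits of the ribosome. They were taken as every gene symbol made of Rpl or Rps and a number, with the usual letter endings and a closing l for a paralog, together with the stalk proteins Rplp0 to Rplp2 and Rpsa. The rule found 84 genes among the 13242 in the table: 43 of the large subunit, 31 of the small subunit, 3 of the acidic stalk and 7 paralogs, which are second gene copies with a sequence and name of their own (Rpl3l, Rpl6l, Rpl7l1, Rpl22l1, Rpl36al, Rpl39l and Rps27l). The cells were macrophages sorted from the quadriceps of mice 1 week after volumetric muscle loss, in which a piece of muscle is cut out, and profiled as single cells by counting unique molecular identifiers (UMIs, tags that mark each captured RNA molecule) at RNA 3′ ends. All mice had the injury. Treatments were a biological scaffold of extracellular matrix made from urinary bladder (UBM, 2280 cells), a synthetic polymer, polycaprolactone (PCL, 1753 cells), or saline (341 cells). Each treatment is 1 library, so no test between treatments was possible, and intervals cover counting error only. The sources used here give no strain, age or sex, nor how many mice went into a library.

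A ribosome carries 1 copy of nearly every one of its proteins, and the cell makes these proteins in matched amounts. In mammals this matching rests to a large part on translation: the messenger RNAs of ribosomal proteins begin with a cytosine followed by a run of pyrimidines, the terminal oligopyrimidine tract, through which growth signalling by mTOR turns their translation up and down together. Ribosomal protein RNAs are short, abundant and stable, and in single-cell data their share of all RNA differs between quiescent, proliferating and activated cells of the immune system.

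The start sites of the members were searched for this tract. Promoter records in RefSeq (GRCm38.p6) were found for 63 of the 84 members. A tract, searched for on the strand of the gene as a C followed by at least 6 bases that are each C or T, and starting within 20 bases of an annotated start on either side, was present for 36 of the 63 (57.1%). The same search found one for 25.7% of the 9828 genes of the count table with a record, and for 21.2% of all 32851 promoter starts. The sequences printed here run from 10 bases before the annotated start to 20 bases from it, across the end of the upstream region and the first bases of exon 1, with the tract in capitals. The first 5 carry a tract and belong to members whose levels are followed in the results. Rps28, Rpl7l1 and Rpl36al have none in this window and are shown because their levels departed from the rest. Whether levels differed between members with and without a tract was not tested. Rps27l (at 1 of 2 annotated starts) and Rpl22l1, which varied widely over clusters, hold a tract. Rplp0, which followed the common order, does not.
Rpl35: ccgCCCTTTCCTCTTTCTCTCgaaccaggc
Rpl15: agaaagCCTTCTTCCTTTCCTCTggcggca
Rpl13a: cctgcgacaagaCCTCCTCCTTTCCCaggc
Rps6: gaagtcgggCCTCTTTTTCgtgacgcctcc
Rps27: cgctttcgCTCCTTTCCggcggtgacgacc
Rps28: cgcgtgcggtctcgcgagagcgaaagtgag
Rpl7l1: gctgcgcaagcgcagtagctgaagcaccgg
Rpl36al: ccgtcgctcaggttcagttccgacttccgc
All 8 lie on the minus strand, at chr2:39005112-39005141, chr14:18270967-18270996, chr7:45128726-45128755, chr4:86857348-86857377, chr3:90213629-90213658, chr17:33824543-33824572, chr17:46782637-46782666 and chr12:69184048-69184077, in the order printed. Tracts were 18 bases long in Rpl35, 17 in Rpl15, 14 in Rpl13a, 10 in Rps6 and 9 in Rps27. A match describes these letters only. Since a tract could begin up to 20 bases from the annotated start, which may not be the start used in macrophages, the search does not show that an RNA begins with it.

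Ribosomal protein genes took the largest share of UMIs with UBM and the smallest with PCL. They made up 19.5% of 14586276 UMIs with UBM. With saline they made up 15.7% of 1888343 UMIs. With PCL the share was 12.7% of 11006118 UMIs. Single cells spread widely around these values. In UBM cells the middle 50% ran from 15.7 to 24.1% with a median of 19.8%, in saline cells from 12.6 to 17.4% with a median of 15.2%, and in PCL cells from 9.95 to 14.1% with a median of 11.95%. The middle ranges of UBM and PCL cells did not overlap, whereas saline overlapped both.

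The libraries differed in other ways that bear on these shares. Mitochondrial genes gave 2.87, 3.93 and 3.62% of the UMIs of the UBM, saline and PCL libraries, and 88 cells in all exceeded 10%. All 11 macrophage markers checked were detected in every library, with summed levels of 20838, 35771 and 26660 counts per 1000000 UMIs (CPM) for UBM, saline and PCL. Gene by gene, however, 8 of the 11 were lower with PCL than with UBM, with a median log2 ratio of -0.37. At least 1.5-fold higher with PCL than with UBM were 3, and 4 were lower (10.4 and 5.27% of all genes). Against saline, 9 were lower with PCL (median -0.41) and 7 with UBM (median -0.34). Monocyte markers (7 checked, all detected) summed to 695, 707 and 1359 CPM. Of the 6 with a mean of at least 10 CPM, 5 were at least 1.5-fold higher with PCL than with saline (6.62% of all genes) and 5 than with UBM (10.4%), with median log2 ratios of 1.30 and 2.0. Neutrophil markers (8 checked) summed to 112, 249 and 1667 CPM, with Retnlg and Ly6g at 0 in saline, and reached 50740 CPM in cluster F2. Muscle fibre markers (8 checked, all detected) summed to 41.0, 666 and 30.3 CPM, and to 957 CPM in cluster R3. Without clusters F2 and R3 the ribosomal protein shares were 19.9, 16.0 and 12.8%. Without cells over 10% mitochondrial UMIs they were 19.5, 15.9 and 12.8%. What part the macrophage and monocyte marker levels play was not tested.

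The 9 clusters named by the authors differed by more points than the treatments did. RP1 had the highest share at 23.9% (624 cells), followed by RP2 at 20.2% (736 cells) and R1 at 18.8% (349 cells). R2 (16.3%, 254 cells) and R3 (14.6%, 226 cells) were intermediate. FP1 (13.8%, 1207 cells), F1 (13.2%, 562 cells) and RP3 (13.1%, 360 cells) were close to each other, and F2 was lowest at 11.2% (56 cells). RP1 stayed highest and F2 lowest in each of the 6 other ways of computing the shares that were tried. Second place passed from RP2 to R1 when each library was given equal weight. That setting used only libraries with at least 20 cells of a cluster. F2 then rested on its 45 PCL cells alone, and RP1 went without its 13 saline cells. The 8 UBM cells of F2 had a share of 18.9% and its 3 saline cells 13.6%, so the low share of F2 describes mainly PCL cells. The authors' clustering may itself have used these genes, so the order describes the clusters and does not test them. When cells were clustered anew without the 84 genes, 13 clusters formed, 85.7% of cells kept the label of the matched cluster, and the difference from highest to lowest was 13.2 points against 12.7.

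Clusters were spread unevenly over treatments. R2 came from UBM cells alone, FP1 held 1036 PCL cells of its 1207, and RP1 held 574 UBM cells of its 624. Within the UBM library the shares ran from 24.6% in RP1 and 21.03% in RP2, through 19.1% in both R1 and FP1, 17.7% in F1, 16.3% in R2 and 14.9% in R3, to 14.1% in RP3. FP1 and F1, low over all cells, therefore stood in the middle among UBM cells. RP1 cells with UBM had 1.71% mitochondrial UMIs and those of RP3 4.44%. The 13 saline cells in RP1 were unlike the rest of that cluster: 11 exceeded 10% mitochondrial UMIs, mitochondrial RNA took 31.0% of their UMIs and ribosomal protein genes 11.6%.

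**Figure D1:**
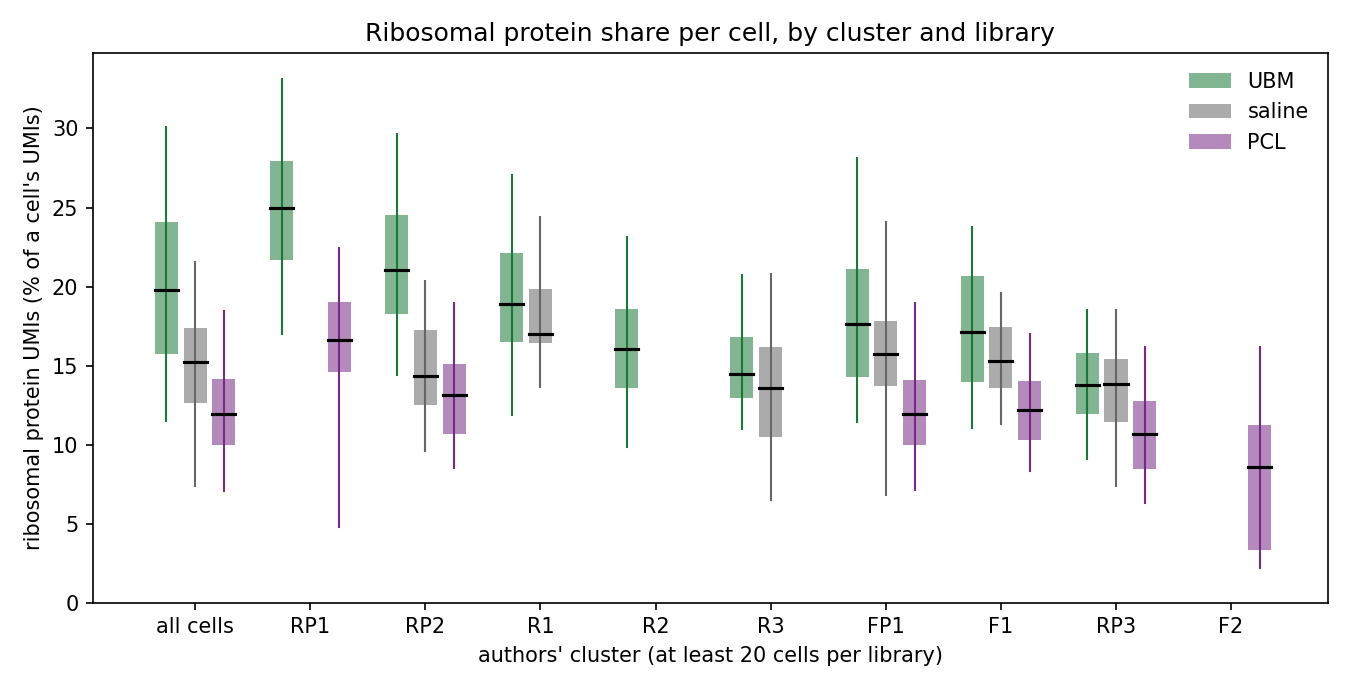
Share of a cell's UMIs that came from the 84 ribosomal protein genes (vertical axis, %), for all cells and for each cluster (horizontal axis) in the UBM, saline and PCL libraries. Boxes span the middle 50% of cells, black lines are medians, and thin lines run from the 5th to the 95th percentile of cells; groups under 20 cells are not drawn. The PCL median lies below the UBM median in every cluster that holds both.

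The order of treatments was also seen inside clusters. In all 6 clusters that held 20 or more cells of each, the share was higher with UBM than with saline, by 0.38 points in RP3, 0.56 in R3, 0.85 in R1, 2.10 in F1, 2.24 in FP1 and 6.03 in RP2. The gap was therefore large in RP2 (21.03% against 15.0%) and small in RP3, R3 and R1. By the medians of single cells RP3 turned the other way, at 13.8% with UBM and 13.9% with saline. PCL lay below saline in 4 of 4 clusters, by 1.66 points in RP2, 2.70 in RP3, 3.09 in F1 and 3.89 in FP1. PCL lay below UBM in 5 of 5, with differences from -3.08 points in RP3 to -7.76 in RP1. Both UBM and PCL were set against the same saline library. With equal weight for the 4 clusters present in every library (F1, FP1, RP2 and RP3), which hold 43.1, 71.0 and 93.6% of the cells of the UBM, saline and PCL libraries, the shares were 18.0, 15.3 and 12.5%, so the UBM and saline libraries stood 2.69 points apart in place of 3.71.

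Gene by gene, the difference was broad, small for most members between either material and saline, and larger between PCL and UBM. A gene was compared where its mean over the 3 libraries was at least 10 CPM, which 82 of the 84 members passed, and log2 ratios were taken after adding 10 CPM. With UBM against saline, 78 of 82 members were above 0, with a median of 0.31 against -0.06 over all 6901 genes. At least 1.5-fold higher were 5 members, a share close to the 5.16% of all genes, and 0 were 1.5-fold lower, against 9.65% of all genes. The 5 were Rpl35, Rpl13, Rpl13a, Rps19 and Rps14, and with equal weight for clusters Rpl35 and Rpl13 alone kept that fold. With PCL against saline, 75 of 82 were below 0, with a median of -0.30 against 0.05 over all genes. Here 1 member was 1.5-fold lower, fewer in proportion than the 6.22% of all genes, and 0 were 1.5-fold higher (6.62% of all genes). With PCL against UBM, 79 of 82 were below 0, with a median of -0.59 against 0.11, and 42 were 1.5-fold lower against 5.27% of all genes, with 0 higher against 10.4%. That count rose to 65 with trimmed-mean scaling, which moved the median of all genes by -0.10, and to 63 with a total without the members and Malat1, and fell to 23 with equal weight for clusters.

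Inside clusters the count of members 1.5-fold lower with PCL than with UBM was 57 in RP2 (9.14% of all genes), 38 in FP1 (7.14%), 32 in RP1 (11.8%), 19 in F1 (9.89%) and 4 in RP3 (4.66%). In RP3 the count was thus near that of all genes, although 77 of 82 members were below 0 there. With UBM against saline, RP2 had 30 members 1.5-fold higher (13.5% of all genes), and the 5 other clusters had 2 in F1 (16.3% of all genes) and 0 elsewhere (10.3 to 13.7%), while the count 1.5-fold lower was 0 to 2 per cluster (13.7 to 20.7% of all genes). Rps28 was among the lower ones in FP1, R1, R3 and RP3. With PCL against saline, 7 members were 1.5-fold lower in F1 (9.20% of all genes), 3 in FP1 (6.75%), 0 in RP2 (18.2%) and 1 in RP3 (13.3%), none of these shares being above that of all genes, and 0 or 1 member per cluster was higher (8.84 to 18.2%).

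**Figure D2:**
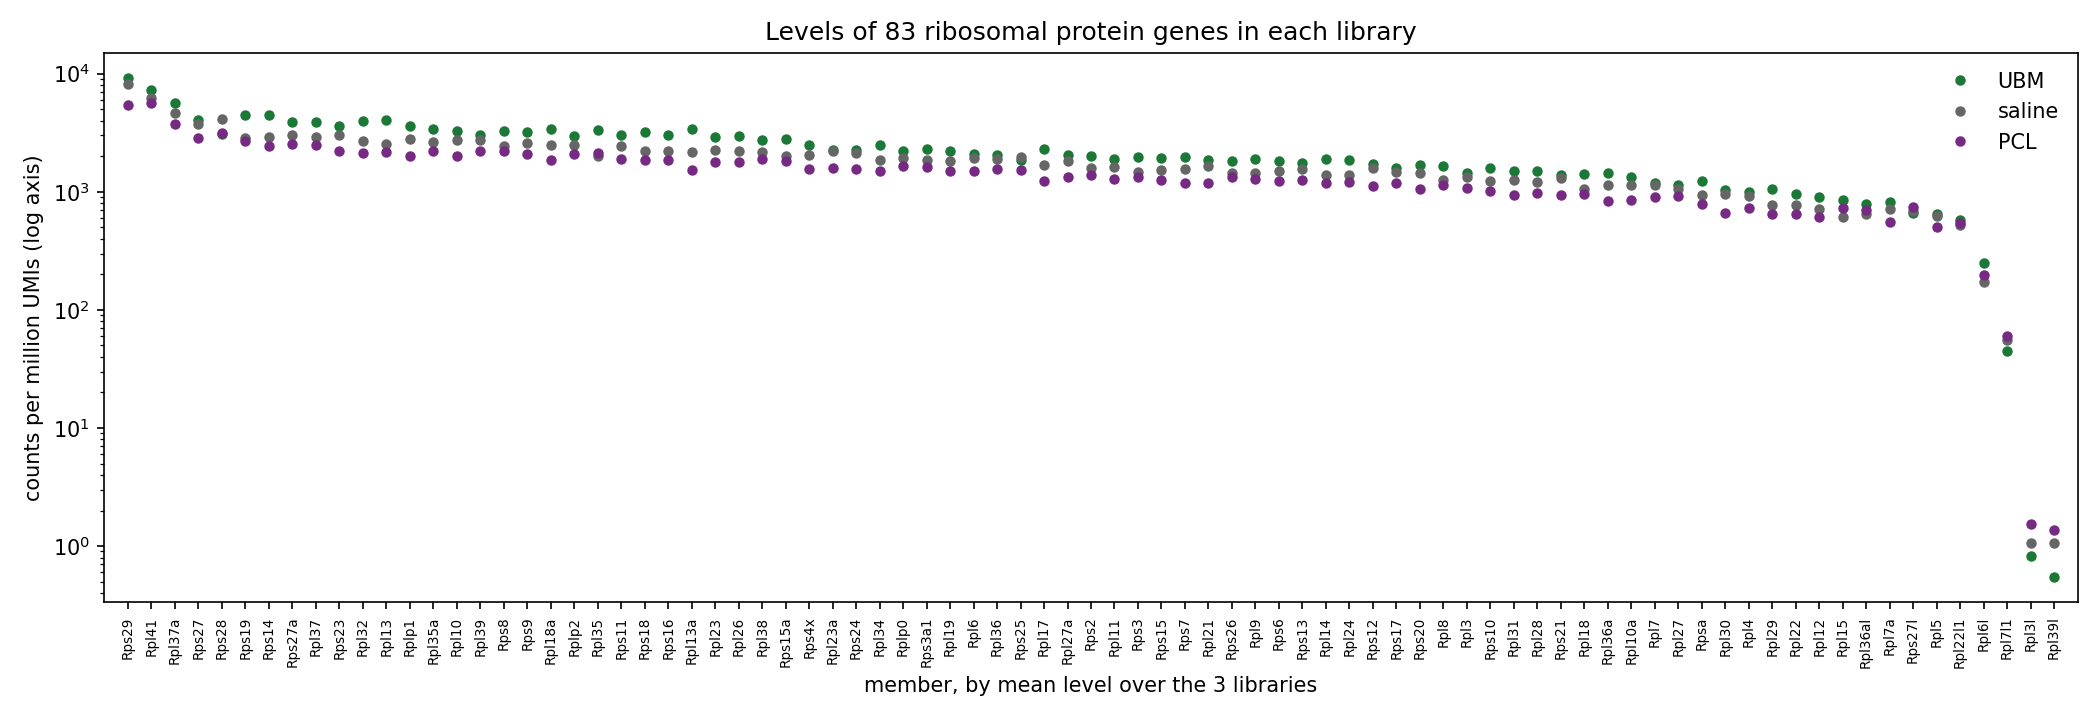
Level of 83 of the 84 members in the 3 libraries, in CPM on a log axis, ordered from left to right by the mean over the libraries. UBM lies above PCL for nearly all members over 10 CPM, and Rpl3l and Rpl39l lie near 1 CPM in every library.

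Levels differed between members by far more than between treatments. In 3′ counting a captured RNA gives 1 UMI whatever its length, so CPM were not divided by length. Rps29, a zinc-binding protein of the small subunit, was the most abundant, with 9203 CPM with UBM, 8216 with saline and 5381 with PCL. Rpl41, the very short basic peptide of the large subunit, followed with 7278, 6254 and 5642 CPM. Rpl37a, also of the large subunit, had 5638, 4652 and 3741 CPM. For these 3 genes the order of libraries was that of the summed share. At the other end, Rpl3l, known from striated muscle, and Rpl39l, known from the male germ line, had between 0.55 and 1.55 CPM in each library and were at the edge of detection. Many members have near-identical copies elsewhere in the genome: for 48 of 83 members matched to GENCODE M21 transcripts, at least 1 other gene shared 98% identity over 90 or more of the last 300 bases, up to 24 genes for Rps2, so levels of those members are uncertain. Adding the 22 rows of such copies present in the table to the 16 members concerned, without Cd9, an unrelated gene that shares a stretch with Rpl7l1, changed the count of members 1.5-fold lower with PCL than with UBM from 42 to 41.

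Among proteins of the large subunit, Rpl35, which sits by the exit of the nascent peptide tunnel, had the widest gap between UBM and saline. Its levels were 3337 CPM with UBM, 2017 with saline and 2148 with PCL, so UBM stood alone and was 1.65-fold above saline (95% interval 1.60 to 1.71). Rpl35 was higher with UBM in each of the 6 clusters compared, by 0.38 to 0.81 on the log2 scale. Rpl13 had 4042, 2527 and 2152 CPM, and was 1.60-fold above saline with UBM. Rpl13a, which outside the ribosome serves a complex that silences inflammatory transcripts in interferon-treated myeloid cells, had 3394, 2165 and 1516 CPM. It was the member with the lowest PCL level relative to UBM: UBM was 2.24-fold above PCL (2.20 to 2.28), with log2 ratios from -0.89 to -1.11 in the 5 clusters compared. Rpl32 had 3997, 2691 and 2115 CPM and Rpl36a 1447, 1136 and 835 CPM, both in the order UBM, saline, PCL.

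Rpl15 went against that order. It had 847 CPM with UBM, 613 with saline and 729 with PCL, so that PCL lay 1.19-fold above saline (1.12 to 1.27). Within clusters the log2 ratio of PCL to saline was 0.56 in F1, 0.20 in RP2, 0.17 in RP3 and 0.01 in FP1. Rpl30, a large subunit protein with an RNA-binding role, had 1030, 963 and 664 CPM. It was close between UBM and saline and lower with PCL. Rpl5 and Rpl11, which join the ribosome with its smallest large-subunit RNA and can bind the p53 regulator Mdm2 when free, had 647, 622 and 503 CPM and 1904, 1633 and 1282 CPM. Rpl5 was close between UBM and saline and lower with PCL, and Rpl11 was nearly evenly spaced over the libraries.

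Among proteins of the small subunit, Rps19, whose human counterpart is the gene most often mutated in Diamond-Blackfan anaemia, had 4429 CPM with UBM, 2862 with saline and 2672 with PCL. UBM was 1.55-fold above saline (1.51 to 1.59), and saline and PCL were close. Rps14 had 4455, 2913 and 2419 CPM with UBM 1.53-fold above saline. Rps6, the target of S6 kinases downstream of mTOR, had 1830, 1508 and 1224 CPM, a log2 ratio of 0.28 between UBM and saline that lies near the median of the set. Rps29 was the only member at least 1.5-fold lower with PCL than with saline, with a ratio of 0.655 (0.644 to 0.667). With equal weight for clusters its log2 ratio moved from -0.61 to -0.55, short of 1.5-fold. Within clusters its PCL to saline log2 ratios were -0.32 in RP2, -0.49 in F1, -0.60 in FP1 and -0.72 in RP3. Rps12 had 1727, 1587 and 1116 CPM, and Rpsa, also known as a laminin receptor precursor, 1232, 943 and 789 CPM.

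Rps28 stood apart from the other small subunit proteins. It had 3104 CPM with UBM, 4110 with saline and 3146 with PCL, so saline was highest and UBM and PCL were close. UBM lay below saline in each of the 6 clusters compared, from -0.36 in RP2 to -0.75 in R3, while at least 53 of the 82 members were above 0 in each of them. PCL lay below saline in 4 of 4 clusters, from -0.19 to -0.46. Rps28 has 3 near-identical pseudogenes, none of which has a row in the table. Rps25, with 1843, 1959 and 1540 CPM, was the other small subunit member below saline with UBM.

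The acidic stalk, the flexible arm that recruits elongation factors, followed the common order. Rplp0, its base, had 2198, 1946 and 1669 CPM. Rplp1 had 3580, 2805 and 1991 CPM and Rplp2 2975, 2475 and 2081 CPM. Rplp1 was the 1 of the 3 with a 1.5-fold difference between UBM and PCL, at 1.80-fold (1.77 to 1.83).

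Over whole libraries the paralogs were not low with PCL against saline. All 5 that were compared were above 0, with a median log2 ratio of 0.11, whereas medians were -0.30 for the large and -0.30 for the small subunit. The margin was small: Rpl22l1 went from 0.04 to -0.02 under trimmed-mean scaling and to -0.15 with equal weight for clusters, and each of the 5 was below saline in at least 1 of the 4 clusters compared, as Rpl7l1 in F1 (-0.47), Rpl22l1 in RP3 (-0.39) and RP2 (-0.32) and Rpl6l in RP2 (-0.12). With PCL against UBM, 3 of the 5 were below 0, with a median of -0.09 and a lowest value of -0.33, against medians of -0.60 and -0.62 for the large and small subunits. Rps27l, a p53-responsive relative of Rps27, had 656 CPM with UBM, 689 with saline and 743 with PCL, while Rps27 itself had 4026, 3725 and 2862 CPM. Rpl22l1 had 573, 523 and 539 CPM, and its partner Rpl22 961, 771 and 653 CPM. Rpl36al had 792, 646 and 702 CPM against 1447, 1136 and 835 for Rpl36a. Rpl7l1, a nucleolar relative of Rpl7, had 44.5, 56.1 and 60.0 CPM against 1179, 1131 and 906 for Rpl7. In these 4 pairs the UBM and PCL libraries differed less, or in the other direction, in the paralog than in its partner. Rpl6l had 249, 173 and 196 CPM, and the pairs of Rpl3 and Rpl39 could not be read because Rpl3l and Rpl39l were near 0. The 3′ end of Rpl7l1 shares a near-identical stretch with Cd9, so its low level and its differences between libraries and clusters are uncertain.

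Relative to the summed ribosomal protein UMIs of each library, most members kept their place. The log2 ratio of a member's share of that sum was within 0.2 of 0 for 62 of 82 members between UBM and saline, for 69 between PCL and saline and for 59 between PCL and UBM. Relative to the sum, Rps28 (-0.71) and Rpl7l1 (-0.64) were at least 1.5-fold lower with UBM than with saline, and Rpl7l1 (1.04), Rps27l (0.79) and Rps28 (0.63) were at least 1.5-fold higher with PCL than with UBM. Rps28 itself was level between PCL and UBM, at 3146 and 3104 CPM. Rpl7l1 had a mean of only 53.5 CPM over the libraries, so its ratios carry a wider counting error.

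Clusters differed in the make-up of the sum as well. Over 9 clusters, the range of a member's log2 share of the sum had a median of 0.37, and ran up to 1.54 in Rpl7l1, 1.19 in Rps27l, 1.05 in Rpl22l1, 0.97 in Rps27 and 0.89 in Rps29. The range of Rpl7l1 is uncertain because its level was low and its 3′ end shares a stretch with Cd9. Relative to all cells, RP1 was low for Rpl7l1 (-0.87), Rps27l (-0.70) and Rpl22l1 (-0.68). FP1 and F1 were high for Rpl7l1 (0.49 and 0.67). RP3 was high for Rps29 (0.65) and low for Rplp0 (-0.53). Among UBM cells alone, where the mix of libraries plays no part, RP1 was again low for Rpl22l1 (-0.56), Rpl7l1 (-0.48) and Rps27l (-0.43), RP3 again high for Rps29 (0.56), and the median range over 8 clusters was 0.33. Rps29 accordingly had 9898 CPM in RP3 and 7374 CPM in FP1 among UBM cells, although the summed share was lower in RP3.

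**Figure D3:**
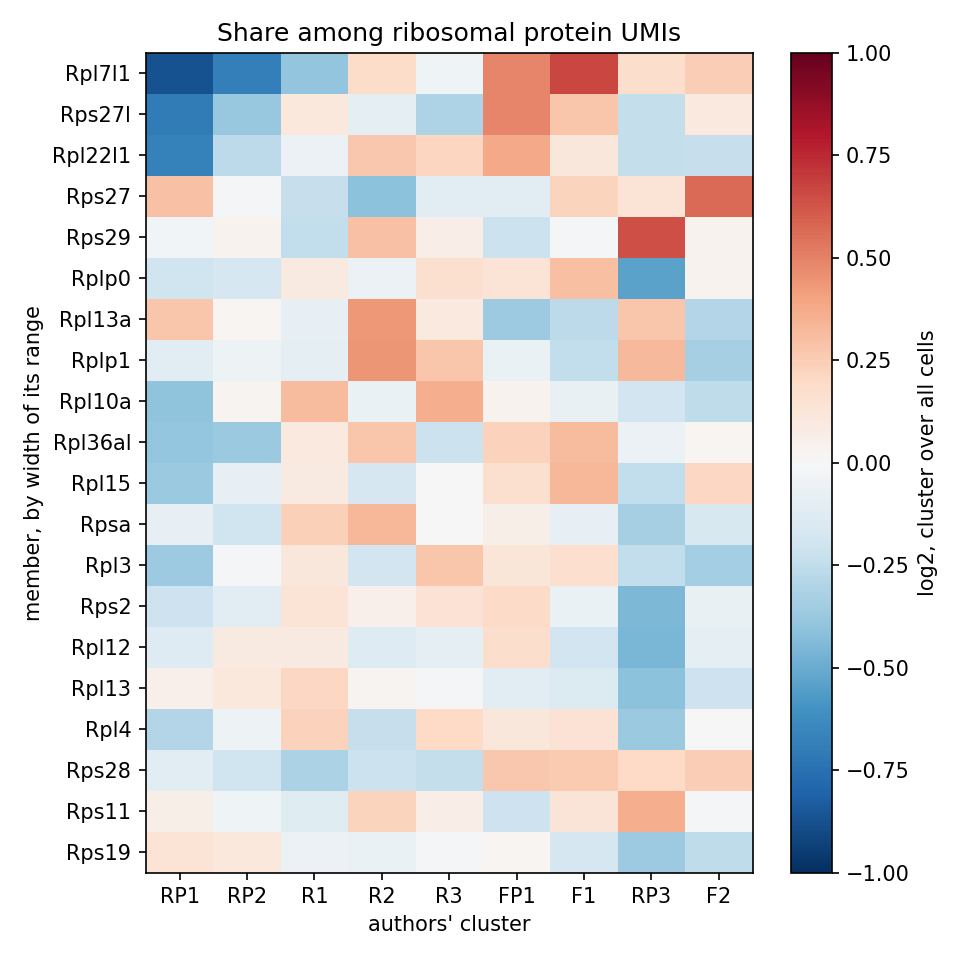
Share of each member among ribosomal protein UMIs in a cluster, as a log2 ratio to the share over all cells, for the 20 members with the widest range over the 9 clusters. Red is higher and blue lower than over all cells; the 3 paralogs at the top, Rpl7l1, Rps27l and Rpl22l1, are lowest in RP1.

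Shares moved with the depth of a cell in opposite directions between libraries. Cells of each library were ordered by UMIs and split into 4 depth bins of nearly equal number. With UBM the share was 21.4% in the shallowest bin (median 2942 UMIs per cell), then 21.1 and 19.8%, and 18.1% in the deepest (median 10554 UMIs). With saline it went from 13.1% (median 1803 UMIs) through 14.8 and 15.1% to 16.9% (median 9734 UMIs). With PCL it went from 11.3% (median 2753 UMIs) through 12.1 and 12.2% to 13.7% (median 9928 UMIs). UBM thus lost 3.26 points from the shallowest to the deepest bin, where saline gained 3.80 and PCL 2.35. In every bin the libraries nonetheless kept the order UBM, saline, PCL.

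The bins held different clusters. RP1, the cluster with the highest share, made up 41.7% of the shallowest UBM cells and 6.14% of the deepest, whereas R2 rose from 5.08 to 23.0%. In saline, mitochondrial RNA took 9.02% of the UMIs of the shallowest bin and 2.91% of the deepest. Inside single clusters both directions were seen. With cells of a cluster split at their median depth, the deeper UBM cells were lower by 2.35 points in RP2 (20.3 against 22.6%) and by 0.84 in RP1, with smaller differences of -0.18 to -0.38 in R1, R2 and R3, but higher by 0.93 in FP1 and 0.44 in RP3. The deeper PCL cells were higher by 1.76 points in FP1 (13.4 against 11.7%), 0.52 in F1 and 0.57 in RP3, but lower by 0.83 in RP2 (13.1 against 13.9%). The deeper saline cells were higher by 1.44 in FP1 and 1.18 in RP3, and lower by 0.26 in F1. FP1 and RP3 rose with depth in all 3 libraries. Spearman's rho of share with UMIs over cells, which draw on the same counts, was -0.24 in UBM RP2 (640 cells), 0.27 in PCL FP1 (1036 cells) and 0.31 in saline FP1 (72 cells).

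**Figure D4:**
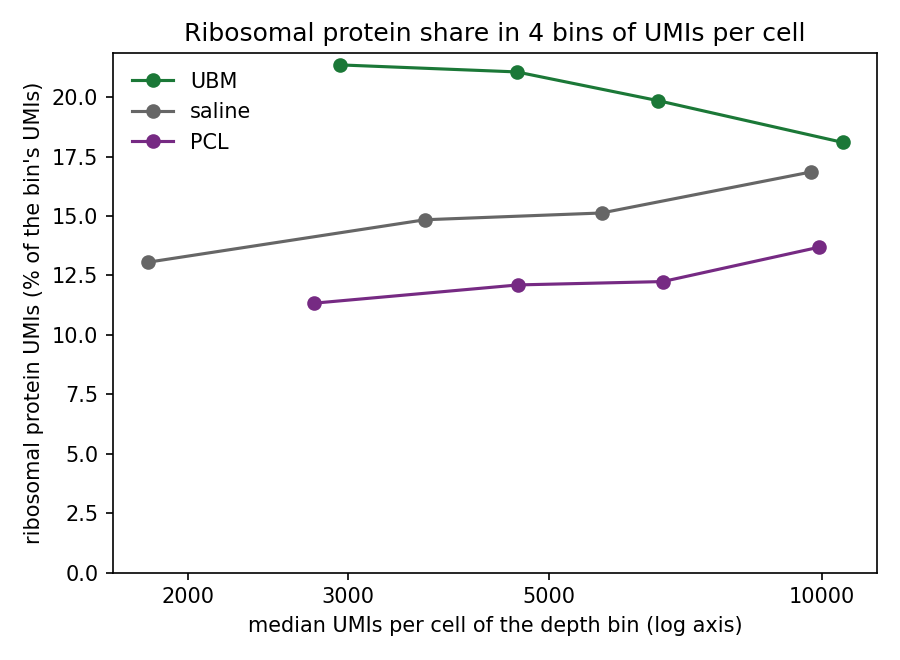
Share of UMIs from ribosomal protein genes (vertical axis, %) in the 4 depth bins of cells ordered by UMIs, against the median UMIs per cell of the bin (log axis), for each library. The UBM line falls from 21.4 to 18.1%, and the saline and PCL lines rise.

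Depth also went with which ribosomal proteins were counted, and most members moved in the same direction in all libraries. Between the deepest and the shallowest bin, the mean log2 ratio of a member's share of the sum was within 0.2 of 0 for 48 of 82 members, and 57 had 1 sign in all libraries. Rplp0 took 0.75, 0.94 and 0.85% of ribosomal protein UMIs in the shallowest bin of UBM, saline and PCL, and 1.29, 1.38 and 1.44% in the deepest, a mean log2 ratio of 0.69. Rps2 (0.63), Rpl4 (0.61) and Rpl29 (0.60) followed. Rps27 went down, from 2.61, 2.74 and 2.65% to 1.72, 2.10 and 1.98%, a mean log2 ratio of -0.47, with Rps29 (-0.45), Rpl37a (-0.42) and Rps28 (-0.36) next. Rps29, Rpl37a and Rps27, high in shallow cells, were among the most abundant members. Other abundant members differed. Rpl41 had mixed signs (-0.14, 0.10 and -0.40 for UBM, saline and PCL), and Rps19 was higher in deep cells in each library (0.02, 0.34 and 0.11). The bins held different clusters here too. RP3, itself high for Rps29 and low for Rplp0, fell from 24.4 to 1.18% of saline cells and from 14.4 to 4.21% of UBM cells. In PCL it went from 5.01 to 5.94%. Members were not followed by depth inside clusters, so the part played by the mix of clusters was not tested.

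Rps27a, which encodes ubiquitin fused to a small subunit protein, had 3903, 3032 and 2558 CPM, the common order. Fau, whose symbol falls outside the rule, encodes a ubiquitin-like protein fused to a small subunit protein. Fau had 3931 CPM with UBM, 2892 with saline and 2330 with PCL, so UBM was 1.36-fold above saline (1.32 to 1.40). Its cluster levels overlapped between UBM (2903 to 5436 CPM) and saline (2737 to 3240 CPM). Within each cluster compared, UBM was above saline, narrowly in R3 (2903 against 2883 CPM) and most widely in RP2 (4445 against 2737 CPM).

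Rps27rt, a copy of Rps27, went against the common order. It had 176 CPM with UBM, 467 with saline and 335 with PCL, with clusters between 108 and 278 CPM with UBM and between 397 and 590 CPM with saline. Reads of Rps27 and Rps27rt can be confused, and their sum was 4202, 4193 and 3196 CPM, so the small excess of Rps27 with UBM over saline was absent from the sum. The 14 pseudogene symbols summed to 1650, 1407 and 1495 CPM.

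**Figure D5:**
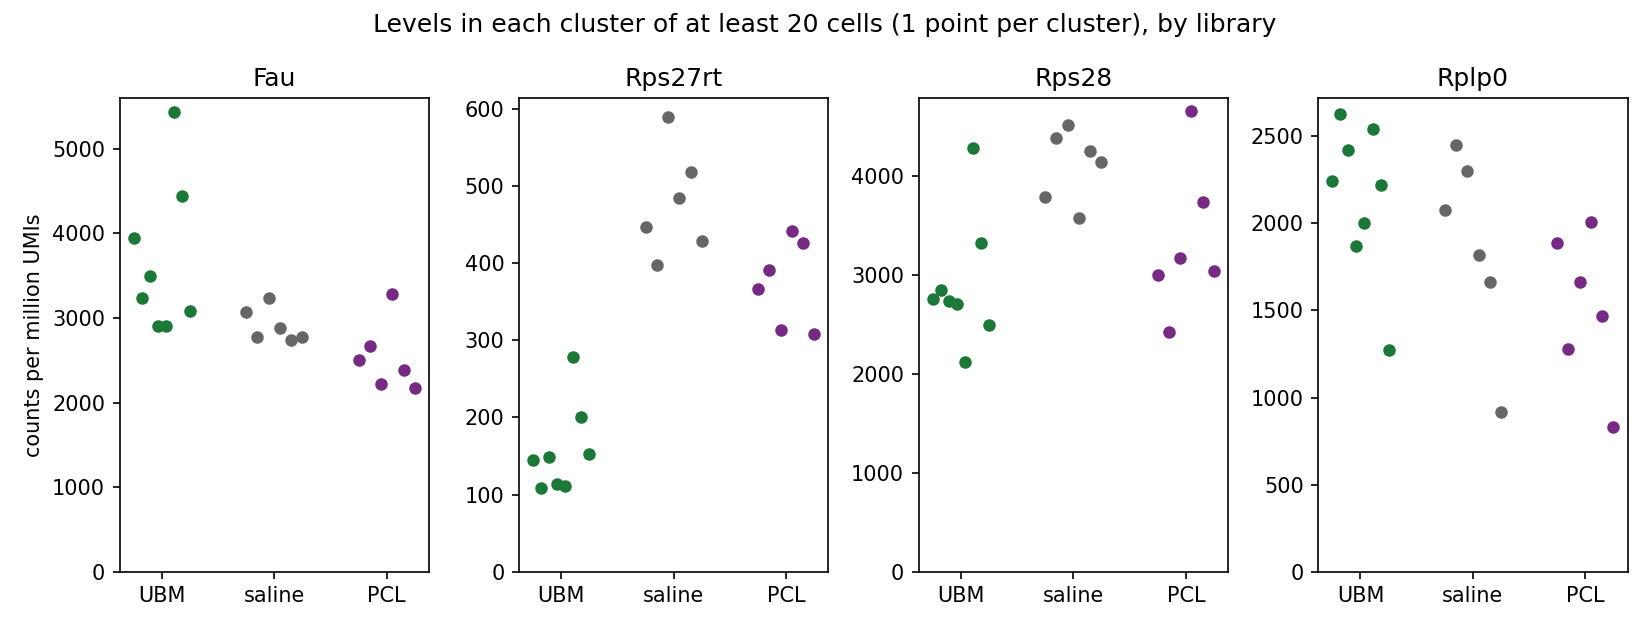
Levels of Fau, Rps27rt, Rps28 and Rplp0 in CPM (vertical axes, from 0), with 1 point for each cluster of at least 20 cells in the UBM, saline and PCL libraries. The Rps27rt points of UBM and saline do not overlap, whereas those of Fau, Rps28 and Rplp0 do.

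Other genes of translation moved partly with the ribosomal proteins. Of 19 translation factors and partners measured, 0 were 1.5-fold apart between UBM and saline (5.16% of all genes higher and 9.65% lower). With PCL, 2 were lower than with saline (6.22% of all genes) and 3 lower than with UBM (5.27%), with 0 higher in either. Medians were 0.08, -0.26 and -0.39 for UBM against saline, PCL against saline and PCL against UBM. The list includes Fau and Gnb2l1, which are themselves ribosomal proteins outside the rule. Fau, with a log2 ratio of -0.75, was among the 3 lower with PCL than with UBM. Eef2, the factor that moves the ribosome along the RNA, had 565, 664 and 428 CPM. Eef1b2, which recharges elongation factor Eef1a1, had 358, 354 and 232 CPM. Pabpc1, the poly(A)-binding protein, was instead lowest with UBM at 440 CPM, against 664 with saline and 554 with PCL. Saline was 1.51-fold above UBM by these levels, but after adding 10 CPM the log2 ratio of UBM to saline, -0.583, fell just short of 1.5-fold. A tract was found for 9 of the 13 genes of this list with a promoter record.

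Over whole libraries, genes of ribosome biogenesis were mostly above 0 with PCL, where the ribosomal proteins were mostly below, but most were less than 1.5-fold apart. The list holds assembly factors and also Myc, Ubtf, Rrn3 and the RNA polymerase I genes Polr1a, Polr1b, Polr1c and Polr1d. Of 32 measured, 27 were above 0 with PCL against saline and 27 with PCL against UBM, with medians of 0.26 and 0.36 against 0.05 and 0.11 over all genes. At least 1.5-fold higher with PCL than saline were 4, a small count but a larger share than the 6.62% of all genes. With PCL against UBM 3 were higher, a share no larger than the 10.4% of all genes. In either comparison 0 were lower (6.22 and 5.27% of all genes). Rrs1, an assembly factor of the large subunit, had 21.6 CPM with UBM, 13.2 with saline and 34.3 with PCL, so its saline level rests on few UMIs. Nhp2, of the pseudouridylation complex, had 94.1, 75.7 and 127 CPM, and Ddx21, a nucleolar helicase, 58.3, 83.1 and 110 CPM. UBM and saline were level over this list, with a median of -0.03 and 1 gene in each direction. Summed over the list, levels were highest in FP1 (2203 CPM), against 1441 in RP1, 1519 in RP2 and 1349 in RP3. FP1 held 59.1% of PCL cells and 4.34% of UBM cells. The list was not compared inside clusters, so the part played by the mix of clusters was not tested.

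Of 8 measured brakes on translation and stress genes, 2 were 1.5-fold higher and 3 lower with UBM than saline, against 5.16 and 9.65% of all genes. With PCL, 1 was higher and 2 were lower than with saline (6.62 and 6.22% of all genes), and 1 was higher and 0 lower than with UBM (10.4 and 5.27%). Eif4ebp1, the mTOR target that holds back the cap-binding factor, had 268 CPM with UBM, 118 with saline and 206 with PCL. Ppp1r15a, which restarts translation after stress, had 70.8, 135 and 83.1 CPM. Of 7 measured p53 targets, 0 were 1.5-fold apart between UBM and saline, and 2 were higher and 0 lower with PCL than saline (6.62 and 6.22% of all genes), although 5 of the 7 were below 0 there, with a median of -0.29. Mdm2 had 48.2, 54.5 and 97.4 CPM and Bax 284, 217 and 362 CPM, both highest with PCL, while Cdkn1a was lowest there, at 511, 504 and 350 CPM.

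Across 20 groups of at least 20 cells (a cluster in a library), which share cells, libraries and depth with the members themselves, 69 of the 82 members correlated with their own sum at r over 0.8, with a median of 0.93. Lowest were Rpl7l1 (-0.10), Rps28 (0.31) and Rps27l (0.44). Among 2366 genes of at least 50 CPM outside the members, the levels most like the summed members were those of Gnb2l1 (r = 0.90), Fau (0.87), 2700060E02Rik (0.86), Npm1 (0.85) and Eef1a1 (0.84). Gnb2l1 is the former symbol of Rack1, a scaffold protein on the small subunit, with 709, 609 and 504 CPM. These correlations describe the groups and carry no test.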

How the data were processed

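Single-cell RNA sequencing counts of sorted macrophages were analysed for 3 libraries and 4374 cells. The deposited table holds raw UMI counts per gene and cell, and another holds the condition and the authors' cluster of every cell. Its condition names for the extracellular matrix, buffered saline and synthetic groups were matched to the labels by meaning. Per the submitters' processing notes, Cell Ranger and Seurat 2 were used. They list genome build hg38, although the symbols are mouse, so coordinates are given only for RefSeq records. The sources used here do not give the filters on cells. No doublet caller was run, and 6 barcodes that occur in 2 libraries were kept as separate cells.

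UMIs were summed per library or cluster and divided by the total to give CPM. Shares have exact binomial 95% intervals and ratios exact conditional binomial ones; they leave out differences between cells, mice and libraries, and shares of whole libraries are known to within 0.1 points by counting alone. Clusters needed 20 cells in each library compared. Calls are a rule of size (1.5-fold after adding 10 CPM, mean of at least 10 CPM), which understates changes of low genes. The code was tested on simulated data.

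Named members were, for each pair of treatments, the 5 highest and 5 lowest log2 ratios; the 4 highest and 4 lowest by depth; the 5 with the widest range over clusters; the 5 most and 5 least abundant; and a set of well-known members and paralog pairs. Rpl10l and Rps4l, in that set, were not analysed here. Of each list the 2 highest and 2 lowest genes per pair were eligible, and Rps27rt was chosen after its values were seen. Some genes are not reported here, and those outside the rule entered no list or setting. Members and lists were chosen with earlier results of these data known. Alternatives covered scaling (edgeR 4.0.16), the added CPM, filters, cells left out, weights and new clusters (2000 variable genes, 20 components, Leiden); adding copies was chosen after seeing the data. Software was Python 3.11.15, pandas 2.3.3, R 4.3.3 and blastn 2.17.0.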

Additional observations from a re-analysis of the deposited data

Results flagged for a closer look

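The share of ribosomal protein UMIs moved in opposite directions with depth: between the deepest and shallowest of 4 depth bins it differed by -3.26 points (UBM), 3.80 points (saline) and 2.35 points (PCL). The bins held different clusters: RP1 made up 41.7% of the shallowest UBM cells and 6.14% of the deepest. Inside clusters, FP1 and RP3 rose with depth in all 3 libraries. RP2 fell in UBM and PCL, and F1 rose in PCL and fell in saline. The difference between libraries was not tested, since each treatment is 1 library.

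Pseudogene symbols outside the 84 genes differed from their saline level in both directions. Rpl10-ps3 stood 2.56-fold above saline with UBM and 1.60-fold with PCL, Rpl13-ps3 1.97-fold with UBM and Rpl9-ps6 1.69-fold with UBM. Rpl36-ps3 was 1.98-fold below saline with UBM (1.67 to 2.35), and Rps12-ps3 had a ratio to saline of 0.893 (0.830 to 0.961). Near-identical sequence makes the pseudogene levels uncertain.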

How the results depend on the processing

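No share difference between whole libraries and no 1.5-fold call changed direction under the alternatives run. By medians of single cells, 5 clusters in place of 6 were higher with UBM than saline, since RP3 went from 0.38 to -0.075 points. Shares for UBM, saline and PCL were 20.8, 17.0 and 13.6% without mitochondrial genes and Malat1 in the total; 20.1, 14.8 and 12.2% with each cell counted alike; 18.0, 15.3 and 12.5% with equal weight for clusters; 19.5, 15.9 and 12.8% without cells over 10% mitochondrial UMIs; 19.9, 16.0 and 12.8% without F2 and R3; 20.1, 15.4 and 12.3% for cells with 2500 to 10000 UMIs; and 19.7, 15.9 and 12.8% without paralogs and with Fau and Gnb2l1. The highest minus the lowest cluster, 12.7 points, became 13.7, 14.1, 10.7 (equal weight for libraries), 13.0 and 12.3 under the matching settings, and 13.2 with new clusters. With at least 50 cells per library, 2 clusters in place of 6 compared UBM with saline and 3 in place of 5 compared PCL with UBM, because fewer qualified.

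Members 1.5-fold apart numbered 8 in place of 5 (UBM above saline) and 2 in place of 1 (PCL below saline) under trimmed-mean scaling and under a total without members and Malat1, and 65 and 63 in place of 42 (PCL below UBM) under the first and the second. With equal weight for clusters they numbered 2, 0 and 23, and 1 in place of 2 was lower relative to the sum with UBM; the cause was not tested.

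Depth differences for UBM, saline and PCL were -3.02, 3.19 and 1.91 points with 3 depth bins, -3.85, 2.80 and 2.26 without cells over 10% mitochondrial UMIs, and -5.10, 2.99 and 1.64 with depth from all other genes. Without F2 and R3 they were -2.92 and 2.15 for UBM and PCL. No paired analysis was possible because each treatment is 1 library. Saline, with 341 cells, limits every comparison with it.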
